A study of Mus musculus with 12 samples.

Results

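The 9 genes described are *Lpl*, *Pparg*, *Cd36*, *Angptl4*, *Plin2*, *Pnpla2*, *Lipe*, *Mgll* and *Abhd5*, which together serve the release, uptake, storage and mobilization of fatty acids. They were taken by symbol from the table of read counts, in which 9 of 15113 genes carry one of these names, and all 9 passed the filter on low counts that left 12730 genes for testing. The RNA came from C2C12 myotubes, a mouse myoblast line fused into multinucleated muscle cells in low serum, which had been treated for 16 h with vehicle (DMSO) or with 20 μM BAM15 dissolved in it. BAM15 is a small molecule that carries protons across the mitochondrial inner membrane and so uncouples respiration from ATP synthesis. There were 6 libraries per condition, and the comparison asks how exposure to the uncoupler altered the expression of this set. The cells are a single immortalized line in a dish, without the capillaries and fat cells that lie beside muscle fibers. The labels do not say whether the 6 libraries of a condition came from separate cultures, so that p-values measure the spread between these libraries, which may be technical.

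Muscle takes fatty acids from circulating triacylglycerol through lipoprotein lipase (LPL), an enzyme that is secreted and acts at the capillary wall and that ANGPTL4 inhibits. CD36 helps the fatty acids across the plasma membrane, and those not burned are esterified and stored in lipid droplets, whose surface carries perilipins such as PLIN2. Stored triacylglycerol is broken down stepwise by adipose triglyceride lipase (encoded by *Pnpla2*, with ABHD5 as its coactivator), hormone-sensitive lipase (*Lipe*) and monoacylglycerol lipase (*Mgll*), and the fatty acids that come free can act as ligands of the PPAR receptors, of which PPARγ (*Pparg*) is best known from fat cells.

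All 9 genes lie on autosomes of the mouse genome (build GRCm38, GENCODE M21 annotation). *Lpl* spans chr8:68880491-68907448 (plus strand), *Angptl4* chr17:33773750-33781830 (minus), *Cd36* chr5:17781690-17888801 (minus), *Pparg* chr6:115360951-115490399 (plus) and *Plin2* chr4:86648386-86670060 (minus). Of the lipolysis genes, *Pnpla2* spans chr7:141455198-141460743 (plus), *Abhd5* chr9:122351608-122381524 (plus), *Lipe* chr7:25379527-25398710 (minus) and *Mgll* chr6:88724412-88828360 (plus). Libraries were primed from the poly(A) tail, so reads fall near the 3′ end of the last exon and a count does not depend on the length of the transcript. None of the 351 windows of 50 bases in the last 400 bases of each principal transcript occurred in a transcript of another gene. For *Abhd5*, all 400 bases lie within exons of A730085K08Rik on the opposite strand, and since the strand used for counting is not given in the sources used here, reads of this pair cannot be told apart. Because only 3′ ends were read, transcripts of *Pparg* that begin at different start sites are not separated either.

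RefSeq (GRCm38.p6) holds promoter sequences for 7 of the 9 genes, and not for *Lpl* and *Angptl4*. Those of 5 genes are shown, from up to 250 bases upstream of a RefSeq start site to the base before the first annotated exon, so that the upstream sequence of genes that rose (*Plin2*, *Pnpla2*, *Abhd5*, *Pparg*) can be read beside that of a gene that fell (*Cd36*). *Pparg* has 3 RefSeq starts, and the one with no annotated exon in its window is given. The windows of *Lipe* and *Mgll* were searched but are not printed, because they begin inside annotated exons. Capitals mark matches on either strand to the motifs listed after the sequences.
*Plin2*, chr4:86670061-86670309, minus strand: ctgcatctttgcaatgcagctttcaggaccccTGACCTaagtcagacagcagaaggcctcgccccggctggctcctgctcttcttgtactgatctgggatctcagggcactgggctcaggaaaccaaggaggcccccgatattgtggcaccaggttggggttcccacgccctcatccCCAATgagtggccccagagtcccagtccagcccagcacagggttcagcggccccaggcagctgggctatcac
*Pnpla2*, chr7:141454938-141455187, plus strand: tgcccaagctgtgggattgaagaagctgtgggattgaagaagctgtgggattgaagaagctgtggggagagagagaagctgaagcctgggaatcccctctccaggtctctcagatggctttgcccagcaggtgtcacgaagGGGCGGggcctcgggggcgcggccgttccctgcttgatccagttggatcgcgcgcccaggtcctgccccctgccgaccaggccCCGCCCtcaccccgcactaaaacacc
*Abhd5*, chr9:122351366-122351607, plus strand: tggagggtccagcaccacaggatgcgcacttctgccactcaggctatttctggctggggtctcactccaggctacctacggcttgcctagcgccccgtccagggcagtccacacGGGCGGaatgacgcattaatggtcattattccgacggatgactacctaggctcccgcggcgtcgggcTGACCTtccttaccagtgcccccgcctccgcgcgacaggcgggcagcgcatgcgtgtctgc
*Cd36*, chr5:17835897-17836146, minus strand: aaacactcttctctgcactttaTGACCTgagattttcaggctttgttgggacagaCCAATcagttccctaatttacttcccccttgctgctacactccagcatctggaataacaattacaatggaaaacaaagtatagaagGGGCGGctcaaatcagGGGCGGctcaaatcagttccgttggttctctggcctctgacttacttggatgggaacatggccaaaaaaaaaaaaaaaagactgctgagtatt
*Pparg*, chr6:115421816-115422065, plus strand: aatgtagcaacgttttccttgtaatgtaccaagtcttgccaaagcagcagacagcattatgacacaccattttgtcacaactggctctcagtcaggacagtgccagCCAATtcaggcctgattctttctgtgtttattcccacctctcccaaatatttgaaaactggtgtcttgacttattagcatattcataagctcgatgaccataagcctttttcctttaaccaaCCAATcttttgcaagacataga

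The PPAR half-site AGGTCA was found in the upstream windows of *Plin2* (leftmost letter 218 bases before the start), *Abhd5* (69 bases) and *Cd36* (228 bases), each time on the strand opposite to the gene, and it occurs in 14% of the 32851 promoters of the table. *Pnpla2* and this start of *Pparg* held none, whereas the windows of the other 2 *Pparg* starts, not printed because they contain annotated exons, each held 1 on the strand of the gene (28 and 9 bases before the start). A pair of half-sites spaced by 1 base, the DR1 arrangement that PPAR-RXR pairs bind, were in none of the 5 windows and in 0.0335% of all promoters. The GC box GGGCGG, present in 32.7% of promoters, occurred in the windows of *Pnpla2*, *Abhd5* and *Cd36*, and the CCAAT box, spelled CCAAT and present in 33.8%, in those of *Plin2*, *Cd36* and *Pparg*. Other motifs searched were the C/EBP-ATF element TGATGNAA (3.45% of promoters), the CRE core TGACGT (6.47%), the E-box CACGTG (6.02%), the FOXO core GTAAACA (3.17%) and the TATA box TATAAA (12.4%), and none of these was in the 5 windows. The unprinted windows of *Lipe* and of *Mgll* held E-box, FOXO core and GC box matches and no PPAR half-site. All these matches describe the letters only. The half-site was present in windows of some genes that rose and of *Cd36*, which fell. It was absent from the windows of *Pnpla2*, which rose, of *Mgll*, which fell, and of *Lipe*, which was not called.

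BAM15 raised *Lpl*, *Pparg* and *Plin2* by 2.87-fold to 6.40-fold and lowered *Mgll* 2.83-fold, while *Pnpla2* and *Abhd5* rose by less than 1.5-fold. The 6.40-fold rise is that of *Pparg* and rests in part on 1 high library. Its log2 fold change was 2.68 over all libraries and 2.15 without BAM15 replicate 5. *Angptl4* rose and *Cd36* fell by smaller amounts, with groups that overlapped, and *Lipe* did not pass the test. In numbers, 6 of the 9 genes were called higher at an adjusted p below 0.01 and 2 lower. Over all tested genes 22% were called higher and 20.3% lower, so the count of higher genes was well above that share and the count of lower genes close to it. With a base mean (the mean normalized count of the 12 libraries) above 50 and a change above 2-fold asked in addition, *Lpl* and *Plin2* remained higher and *Mgll* lower, against 3.7% of all tested genes higher and 3.58% lower. The 6 BAM15 libraries lay above all vehicle libraries for 5 genes and below them for 1, where 17.1% of all tested genes were apart upward and 17% downward. The median log2 fold change was 0.43 over the 9 genes and 0.02 over all tested genes. The 9 genes were chosen with earlier results of these data known. Their counts and median, set beside those of all genes, are therefore a description and not a test of the set. In bulk RNA, fewer cells of a kind and less RNA per cell cannot be told apart.

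**Figure D1:**
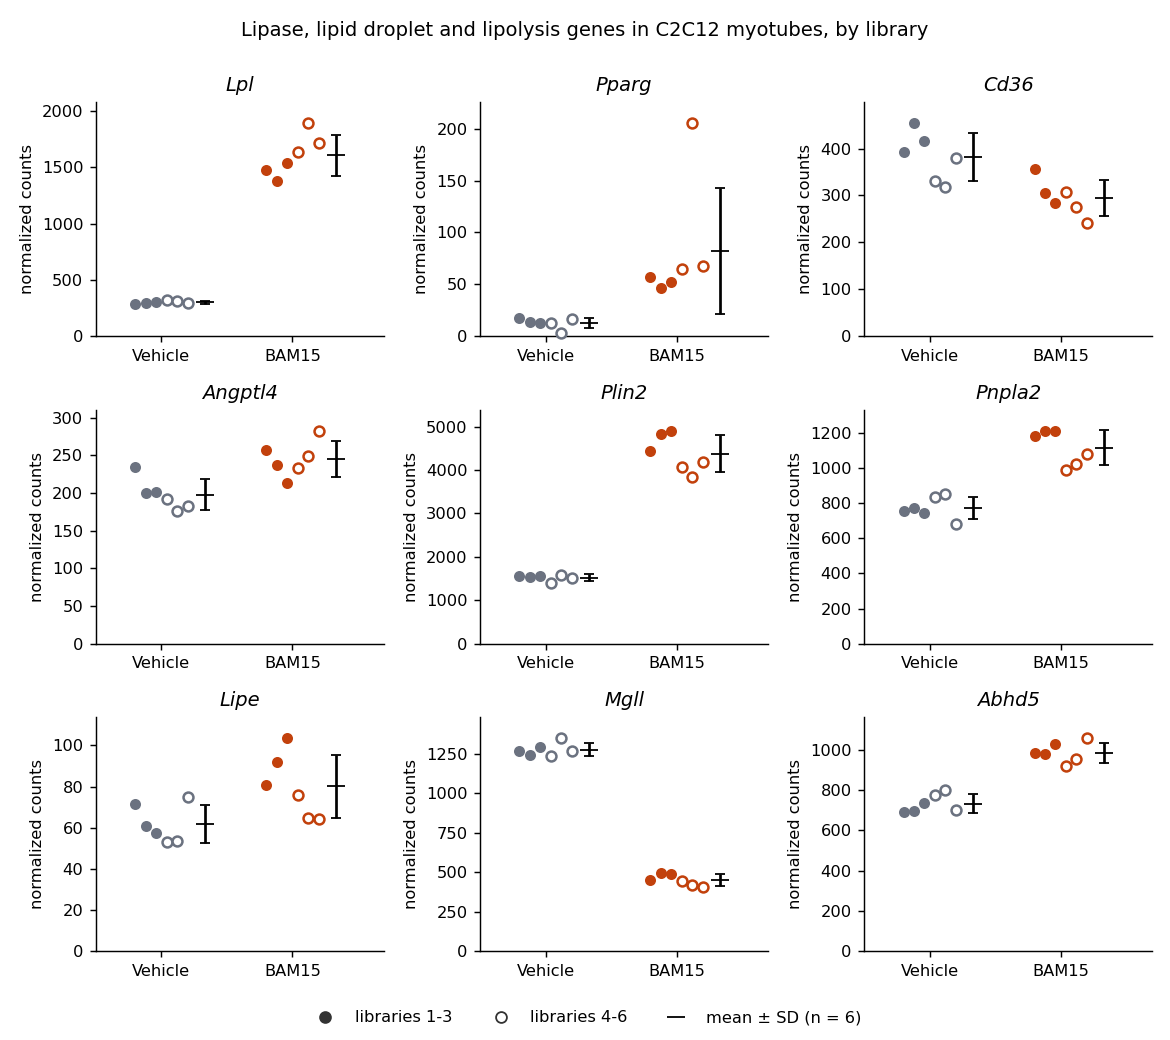
Normalized counts (y axes, each from 0) of the 9 genes in every library of vehicle-treated and BAM15-treated myotubes (x axes). Filled circles are libraries 1 to 3, open circles libraries 4 to 6, and bars give mean ± SD (n = 6). The conditions do not overlap for *Lpl*, *Pparg*, *Plin2*, *Pnpla2*, *Mgll* and *Abhd5*, and overlap for *Cd36*, *Angptl4* and *Lipe*.

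Some facts of the whole experiment bear on these values. Library totals ran from 13983725 to 18866728 counts, and counts were scaled to a common library size by the TMM method (normalized counts). The first principal component, with 66.7% of the variance, separated the conditions, and the second, with 18.5%, placed BAM15 libraries 1 to 3 (scores -34.2 to -19.1) apart from BAM15 libraries 4 to 6 (7.1 to 38.3). On the second, vehicle libraries 1 to 3 scored -9.2 to 0.1 and vehicle libraries 4 to 6 scored -1.0 to 9.6, with overlap. No label gives a batch for these numbers, and values from libraries 1 to 3 and 4 to 6 of each condition are therefore given below as a description, with no test of the difference between them. All 16 myotube markers and all 10 myoblast markers had counts. The summed level of the myotube markers ranged from 19890 to 27210 CPM (counts scaled to a common library size) after BAM15 and from 21570 to 24240 in vehicle, and that of the myoblast markers from 300 to 333 and from 552 to 598 CPM. Of the 16 myotube markers, 2 were called higher, 4 lower and 10 not. *Acta1*, the most abundant of them, rose by 0.46 on the log2 scale and *Myog* by 0.37. The lower ones were *Mymx* (-0.38), *Mb* (-0.34), *Mymk* (-0.27) and *Ckm* (-0.17).

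The transcript of lipoprotein lipase gave the clearest rise. *Lpl* stood at 1478, 1382, 1539, 1633, 1893 and 1719 normalized counts in BAM15 libraries 1 to 6 and at 284, 293, 306, 318, 313 and 294 in vehicle libraries 1 to 6. The lowest BAM15 library held more than 4 times the count of the highest vehicle library, and the vehicle libraries were nearly level. Mean levels were 1607 ± 183 and 301 ± 13.2 normalized counts (SD, n = 6 each), a log2 fold change of 2.42 (SE 0.08, adjusted p = 1.88e-12). By the size of the rise *Lpl* ranked 151 among the 12730 genes and by p-value 48. Its level moved from the 48.7th to the 84.6th percentile of tested genes, that is from a middling to a high level of 3′ counts. BAM15 libraries 4 to 6 averaged 1748 ± 132 normalized counts and libraries 1 to 3 averaged 1466 ± 79.3, and the log2 fold change was 2.49 within numbers 4 to 6 and 2.31 within numbers 1 to 3.

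*Angptl4* encodes a secreted inhibitor that unfolds LPL, and it is a known target of PPAR receptors. It held 257, 237, 213, 233, 249 and 282 normalized counts after BAM15 and 235, 200, 201, 192, 176 and 183 in vehicle. Only vehicle library 1 reached into the BAM15 range. The difference of means, 245 ± 23.6 against 198 ± 20.7 (SD, n = 6 each), corresponded to a log2 fold change of 0.31 (SE 0.09, adjusted p = 8.63e-03). The call depended on single libraries, since it was lost (adjusted p 0.0111 to 0.0230) on leaving out any 1 library other than BAM15 replicate 3 (adjusted p = 5.28e-03) or vehicle replicate 1 (adjusted p = 3.12e-03). Libraries 1 to 3 of each condition gave a log2 fold change of 0.15 (adjusted p = 0.29), and libraries 4 to 6 gave 0.46 (adjusted p = 8.29e-03).

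The transcripts of enzyme and inhibitor therefore changed to different extents within the same libraries. The ratio of *Lpl* to *Angptl4* was between 1.21 and 1.78 in vehicle libraries and between 5.74 and 7.61 after BAM15. On the log2 scale the ratio rose by 2.10 (SD 0.17 in BAM15 and 0.19 in vehicle). An exact two-sided permutation test over the 12 libraries gave p = 2.16e-03, the smallest value that 6 against 6 allows, and 3.24e-03 after adjustment over the 3 ratios tested. These pairs of genes were chosen with their changes known. The fold gap between the conditions in *Lpl* exceeded the whole fold range of *Angptl4*. Full separation of this ratio therefore followed from values already given.

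The 3 genes whose log2 CPM over the 12 libraries followed that of *Lpl* most closely were *Slc7a11* and *Slc3a2*, which encode the light and heavy chains of the cystine-glutamate exchanger, and *Scpep1*, a serine carboxypeptidase (Pearson r = 0.998 for each, among 10469 genes with a base mean above 50). For *Angptl4* they were *Psmc6*, a subunit of the proteasome (0.928), *Dbt*, a subunit of the branched-chain keto acid dehydrogenase (0.903), and *Crtc3*, a coactivator of CREB (0.902). These values span both conditions and so include the contrast between them.

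*Pparg*, the nuclear receptor of fat cell formation, was expressed at a low level and rose in every BAM15 library. After BAM15 it held 57.3, 46.5, 51.7, 65.2, 206 and 67.7 normalized counts, from 59, 43, 55, 61, 219 and 58 reads. Vehicle libraries held 17.6, 13.8, 12.4, 13.0, 3.09 and 16.3 normalized counts, from 20, 13, 13, 12, 3 and 18 reads. BAM15 library 5 was about 3 times as high as the next, and vehicle library 5 was well below the other vehicle libraries. Mean levels were 82.3 ± 60.9 and 12.7 ± 5.11 (SD, n = 6 each), and medians, which library 5 hardly touches, were 61.2 and 13.4. The log2 fold change was 2.68 (SE 0.44, 95% confidence interval 1.74 to 3.62, adjusted p = 1.50e-04). Without BAM15 replicate 5 it was 2.15 (adjusted p = 3.20e-06) and without vehicle replicate 5 it was 2.48 (adjusted p = 3.26e-04), whereas numbers 1 to 3 alone gave 1.81 and numbers 4 to 6 alone 3.36. The base mean of 47.5 lay just below 50, which kept *Pparg* out of the genes past all 3 thresholds despite the size of its change.

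*Cd36* encodes the scavenger receptor that binds long-chain fatty acids at the cell surface. BAM15 libraries held 357, 305, 283, 308, 276 and 240.5 normalized counts and vehicle libraries 392, 454, 416, 331, 318 and 380. The ranges overlapped, with BAM15 library 1 above the 2 lowest vehicle libraries. The decrease on the log2 scale (-0.37, SE 0.11, adjusted p = 7.68e-03) was 295 ± 39.0 against 382 ± 51.3 normalized counts (SD, n = 6 each). It stayed past the threshold without BAM15 replicate 1 (adjusted p = 2.75e-03), vehicle replicate 4 (6.00e-03) or vehicle replicate 5 (4.03e-03) and was lost without any other single library (0.0103 to 0.0192). *Cd36* thus moved in the opposite direction to *Lpl*.

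*Plin2*, the perilipin that coats lipid droplets in cells other than adipocytes, was the most abundant of the 9 transcripts in both conditions. It held 4427, 4822, 4904, 4068, 3844 and 4181 normalized counts after BAM15 and 1559, 1544, 1556, 1390, 1590 and 1504 in vehicle. Every BAM15 library was more than 2 times as high as any vehicle library, with libraries 1 to 3 above libraries 4 to 6. The log2 fold change was 1.52 (SE 0.07, adjusted p = 7.29e-11), from 1524 ± 71.2 to 4374 ± 423 normalized counts (SD, n = 6 each). It was 1.60 within numbers 1 to 3 and 1.42 within numbers 4 to 6.

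Transcripts of the enzymes that empty the droplet did not move together. *Pnpla2*, which encodes the lipase that removes the first fatty acid from triacylglycerol, held 1182, 1211, 1212, 991, 1023 and 1080 normalized counts after BAM15 and 758, 773, 744, 837, 850.5 and 682 in vehicle. The lowest BAM15 library exceeded the highest vehicle library. The rise was 0.53 on the log2 scale (SE 0.07, adjusted p = 1.81e-05), 0.66 within numbers 1 to 3 and 0.38 within numbers 4 to 6. *Abhd5*, the coactivator without which this lipase works poorly, held 985, 977, 1026, 920, 952 and 1056 normalized counts after BAM15 and 689, 696, 735, 777, 802 and 699 in vehicle. Here too the conditions did not overlap, and the rise was 0.43 on the log2 scale (SE 0.06, adjusted p = 1.72e-05).

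The transcripts of lipase and coactivator stayed at levels similar to each other in both conditions. *Pnpla2* stood at 0.975 to 1.11 times *Abhd5* in vehicle libraries and at 1.02 to 1.24 times after BAM15. The log2 ratio was 0.10 higher after BAM15 (SD 0.11 and 0.07), which the exact two-sided permutation test did not separate from the spread between libraries (p = 0.0931, n = 6 each). Within libraries 1 to 3 the ratio was 1.18 to 1.24 after BAM15 and 1.01 to 1.11 in vehicle. Within libraries 4 to 6 it was 1.02 to 1.08 and 0.975 to 1.08, with overlap. Counts of *Abhd5* may include reads of A730085K08Rik.

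*Lipe* encodes hormone-sensitive lipase, which acts mainly on diacylglycerol. Its normalized counts were 80.6, 91.8, 103, 75.8, 64.8 and 64.2 after BAM15 and 71.3, 60.6, 57.3, 53.0, 53.6 and 75.0 in vehicle. The groups overlapped, and BAM15 libraries 4 to 6 were the lowest of their condition. The log2 fold change of 0.37 (SE 0.15, 95% confidence interval 0.06 to 0.68) did not reach the threshold (adjusted p = 0.0427). Libraries 1 to 3 alone gave 0.54 (adjusted p = 0.0136) and libraries 4 to 6 alone 0.16 (adjusted p = 0.564).

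*Mgll*, whose product hydrolyses monoacylglycerol to glycerol and the last fatty acid and also degrades the endocannabinoid 2-arachidonoylglycerol, fell. After BAM15 it held 450, 498, 486, 442, 421 and 404 normalized counts and in vehicle 1268, 1243, 1294, 1236, 1347 and 1265. The highest BAM15 library was below 0.5 times the lowest vehicle library, and the spread within either condition was small. Mean levels were 450 ± 36.5 and 1276 ± 40.6 (SD, n = 6 each), a log2 fold change of -1.50 (SE 0.06, adjusted p = 2.89e-11). It was -1.41 within numbers 1 to 3 and -1.61 within numbers 4 to 6.

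**Figure D2:**
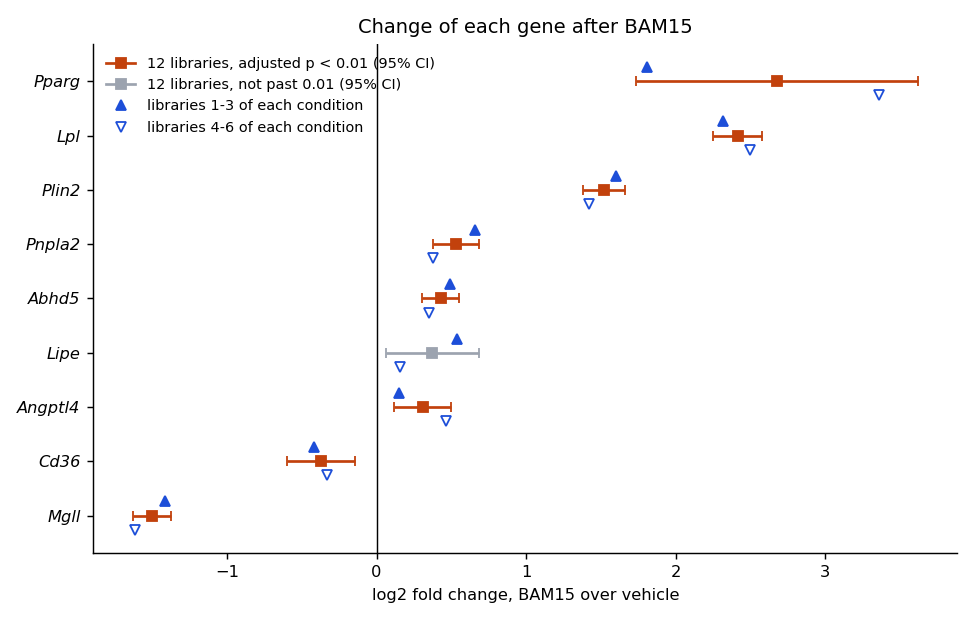
Log2 fold change of BAM15 over vehicle (x axis) for the 9 genes (y axis). Squares with 95% confidence intervals are from all 12 libraries (orange past an adjusted p of 0.01, grey not), filled triangles from libraries 1 to 3 and open triangles from libraries 4 to 6 of each condition. *Pparg* has the widest interval, 1.74 to 3.62, and each gene lies on the same side of 0 in both sets of libraries.

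Opposite changes in the transcripts of the first and the last lipase turned their proportion around. *Mgll* stood at 1.48 to 1.86 times *Pnpla2* in every vehicle library and at 0.374 to 0.446 times after BAM15, a shift of -2.03 in the log2 ratio (SD 0.09 in BAM15 and 0.12 in vehicle, n = 6 each). The transcript of the droplet coat rose more than that of the lipase, with *Plin2* at 1.66 to 2.21 times *Pnpla2* in vehicle and 3.74 to 4.10 times after BAM15. This log2 ratio rose by 0.99 (SD 0.06 and 0.15, exact permutation p = 2.16e-03, adjusted 3.24e-03, n = 6 each). The p-value is the smallest that 6 against 6 allows, for a pair that was also chosen with its changes known. Here too the full separation followed from values of both genes already given. *Lpl* passed from 0.224 to 0.257 times *Mgll* in vehicle to 2.77 to 4.50 times after BAM15. The ratios of *Mgll* to *Pnpla2* and of *Lpl* to *Mgll* restate opposite changes already given and were not tested.

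**Figure D3:**
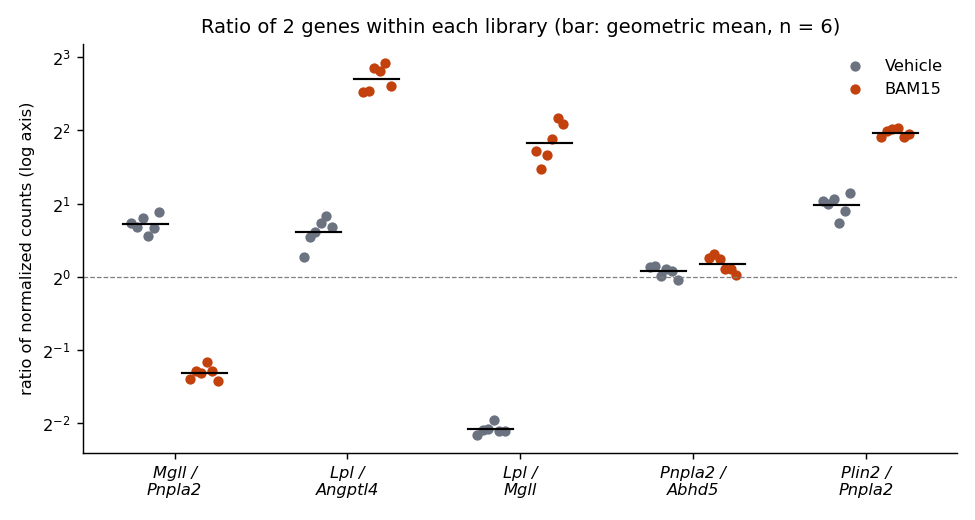
Ratio of the normalized counts of 2 genes within each library (y axis, log scale) for 5 pairs of genes (x axis), with vehicle in grey and BAM15 in orange. Points are libraries and bars the geometric mean of 6. *Mgll* over *Pnpla2* crosses from above 1 to below 1, *Lpl* over *Mgll* crosses the other way, and *Pnpla2* over *Abhd5* stays near 1 in both conditions.

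The order of the 9 transcripts by mean normalized 3′ count changed accordingly. In vehicle it ran *Plin2*, *Mgll*, *Pnpla2*, *Abhd5*, *Cd36*, *Lpl*, *Angptl4*, *Lipe* and *Pparg*. The libraries of neighbours overlapped for *Pnpla2* with *Abhd5* and for *Cd36* with *Lpl*, and lay apart for the other neighbours. After BAM15 the order was *Plin2*, *Lpl*, *Pnpla2*, *Abhd5*, *Mgll*, *Cd36*, *Angptl4*, *Pparg* and *Lipe*, with overlap between *Pnpla2* and *Abhd5*, *Cd36* and *Angptl4*, and *Pparg* and *Lipe*. *Lpl* thereby moved from rank 6 to rank 2 and *Mgll* from rank 2 to rank 5.

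The same pathways were then read through 7 lists of further genes, written from general knowledge, in which 106 genes besides the 9 were tested. Of these, 21 were called higher, 21 lower and 64 not, and their median log2 fold change was -0.04. Over all tested genes 22% were called higher and 20.3% lower, so the counts over the 106 genes were close to those shares. The counts of each list below are to be read beside the same shares, as a description. Among 9 partners of LPL, 3 were higher and 3 lower (median 0.10). *Vldlr*, a lipoprotein receptor that works together with LPL, rose from 102 ± 9.13 to 852 ± 72.0 normalized counts (log2 fold change 3.06, adjusted p = 3.52e-13). *Sel1l*, needed for LPL to leave the endoplasmic reticulum, rose by 0.78 and *Pcsk6*, a proprotein convertase of the family that cleaves LPL, by 0.86. *Sdc1*, a heparan sulfate proteoglycan, changed by -0.65, and *Lipg*, the related endothelial lipase, by -1.82 from a low level of 32.8 ± 9.12 normalized counts (adjusted p = 0.0375 within numbers 4 to 6). *Lmf1*, the maturation factor of LPL, did not pass (0.10, adjusted p = 0.264), and *Gpihbp1* and *Apoc2* were not in the table of read counts.

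Genes of fatty acid uptake and binding other than *Cd36* went down or did not pass. Of 11 tested, 0 were higher and 6 lower by edgeR's quasi-likelihood test (median -0.21). At an unadjusted p below 0.05 the higher count was 1, and DESeq2 and limma-voom called 0 higher and 6 lower. Over all tested genes edgeR called 22% higher and 20.3% lower. The list was chosen with earlier results of these data known, so its counts are a description and not a test. *Cav1*, the coat protein of caveolae, fell from 516 ± 39.7 to 132 ± 31.6 normalized counts (log2 fold change -1.96, adjusted p = 8.68e-09). The fatty acid transporter gene *Slc27a3* fell from 99.2 ± 14.6 to 28.7 ± 7.17 (-1.79) and *Fabp5*, a cytosolic fatty acid-binding protein, from 402 ± 64.1 to 178 ± 33.8 (-1.18). *Slc27a4*, *Dbi* and *Lypla1* were the other 3 (-0.73, -0.69 and -0.21). The transporter *Slc27a1*, with the largest positive value of the list, did not pass (1.09, adjusted p = 0.0388) and ranged from 20.5 to 95.8 normalized counts after BAM15. *Fabp3*, the muscle fatty acid-binding protein, did not pass either (-0.13, adjusted p = 0.253).

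Other genes of the lipid droplet gave 4 higher and 1 lower of 13 tested (median 0.16). *Plin4*, a perilipin with long amphipathic repeats, rose from 25.9 ± 6.22 to 83.1 ± 11.7 normalized counts (log2 fold change 1.68, adjusted p = 5.34e-07). *Plin3* (0.26), *Hilpda* (0.47), whose product binds droplets and inhibits the lipase of *Pnpla2*, and *Tmem159* (0.50), a droplet assembly factor, were also higher. *Acsl3*, an acyl-CoA synthetase of nascent droplets, was lower (-0.75). All 3 perilipins tested, *Plin2*, *Plin3* and *Plin4*, rose, each with no overlap between conditions.

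Among 17 other genes of lipolysis and its control, 5 were higher and 3 lower (median 0.21). *Pde3b*, the phosphodiesterase through which insulin lowers cyclic AMP, rose from 199 ± 9.78 to 543 ± 26.7 normalized counts (log2 fold change 1.45, adjusted p = 6.29e-11). *Adrb1*, a beta-adrenergic receptor, rose by 1.69 from 5.05 ± 2.82 normalized counts (adjusted p = 0.0276 within numbers 4 to 6). *Pnpla8*, a phospholipase of the same family as *Pnpla2*, and *Cop1*, a ubiquitin ligase, rose by 0.43 and 0.24. The lower genes were subunits of protein kinase A, which phosphorylates hormone-sensitive lipase and perilipins, with *Prkar2b* at -0.70, *Prkaca* at -0.30 and *Prkar1a* at -0.24 on the log2 scale. *G0s2*, a direct inhibitor of the lipase of *Pnpla2*, did not pass (0.74, SE 0.62, adjusted p = 0.337). Its normalized counts after BAM15 were 87.4, 27.0, 45.1, 206, 544 and 327, a spread that contained all vehicle libraries (64.3 to 184).

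Synthesis of triacylglycerol showed 2 higher and 2 lower genes of 18 (median 0.01). *Gpat3*, for the acylation of glycerol-3-phosphate, rose from 35.7 ± 10.5 to 147 ± 15.0 normalized counts (log2 fold change 2.04, adjusted p = 1.46e-07) and *Dgat2*, for the final acylation, from 59.1 ± 11.9 to 141 ± 14.5 (1.25, adjusted p = 1.43e-06). Their more abundant relatives *Gpat4* (0.12, adjusted p = 0.254) and *Dgat1* (0.15, adjusted p = 0.0820) did not pass. The lower genes were *Acsl3* and *Pcyt1a* (-0.20, adjusted p = 5.04e-03), the latter lost without BAM15 replicates 4, 5 or 6 or vehicle replicate 3 (adjusted p 0.0103 to 0.0139).

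**Figure D4:**
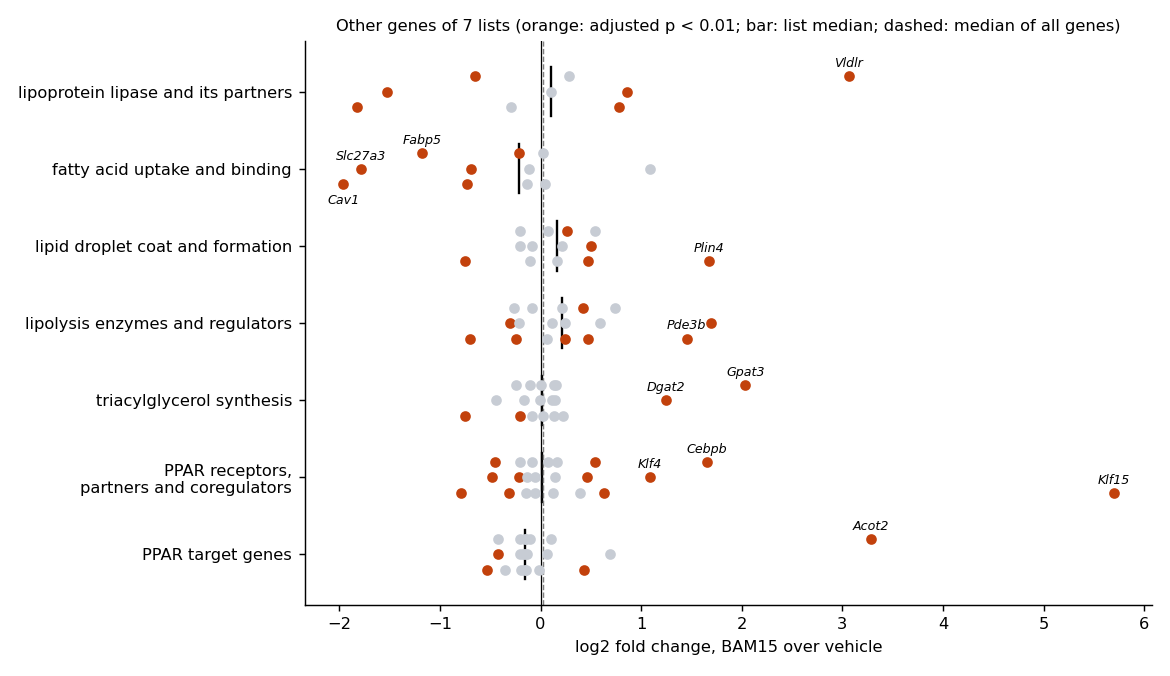
Log2 fold change of BAM15 over vehicle (x axis) for genes other than the 9, in 7 lists (y axis). Orange points are past an adjusted p of 0.01 and grey points not, bars are list medians and the dashed line is the median of all tested genes. Points with a name also have a base mean above 50 and a change above 2-fold, except *Klf15*, whose vehicle libraries held 0 to 3 counts.

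Receptors, partners and coregulators of PPAR gave 6 higher and 5 lower of 22 (median 0.01). *Ppard*, the main PPAR of skeletal muscle, did not pass (-0.05, adjusted p = 0.617), nor did *Ppargc1a* (0.07, adjusted p = 0.701) or *Rxra* (-0.13, adjusted p = 0.258), and *Rxrb* rose by 0.63. *Cebpb*, an early factor of fat cell formation, rose from 304 ± 37.0 to 956 ± 68.1 normalized counts (log2 fold change 1.65, adjusted p = 2.97e-10), *Klf4* from 1525 ± 157 to 3236 ± 509 (1.08, adjusted p = 2.94e-07) and *Cebpd* by 0.54. *Klf15* held 33 to 83 counts per library after BAM15 and 0 to 3 in vehicle, which makes it at least 16.4-fold higher against a floor of 3 counts per library (adjusted p = 8.24e-08). *Ebf1* (-0.46), *Zfp467* (-0.79) and *Klf5* (-0.22), which also act in fat cell formation, and *Ppargc1b* (-0.31) were among the lower genes, and *Cebpa* did not pass (-0.20, adjusted p = 0.174). Within numbers 1 to 3 *Zfp467* did not pass (adjusted p = 0.131).

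PPAR target genes other than the 4 that rose or the 1 that fell among the 9 showed little movement, with 2 higher and 2 lower of 21 (median -0.15). *Acot2*, a mitochondrial acyl-CoA thioesterase, rose from 337 ± 18.0 to 3284 ± 857 normalized counts (log2 fold change 3.29, adjusted p = 1.40e-10). *Ucp2* fell (-0.42, adjusted p = 2.60e-05). *Hadhb*, a subunit of the trifunctional protein of fatty acid oxidation, was called lower (-0.53, adjusted p = 7.42e-03), which held without BAM15 replicate 5 (adjusted p = 6.89e-05), vehicle replicate 2 (9.50e-03) or vehicle replicate 3 (8.36e-03) and was lost without any other single library (0.0104 to 0.0194). *Pdk4*, the pyruvate dehydrogenase kinase that PPAR ligands commonly raise in muscle, stood at 16.7 ± 4.74 against 10.2 ± 4.62 normalized counts and did not pass (adjusted p = 0.0712).

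Since *Lpl*, *Pparg*, *Cd36* and *Plin2* are also expressed by fat cells, macrophages and endothelium, markers of these cells are set beside them. Of 12 adipocyte markers, 8 (*Adipoq*, *Lep*, *Retn*, *Cfd*, *Plin1*, *Cidec*, *Slc36a2* and *Ucp1*) were not in the table of read counts. The other 4, of which *Fabp4* held at most 3 counts in any library, summed to 42.5 to 66.3 CPM after BAM15 and 72.4 to 91.4 CPM in vehicle. Most of this sum was *Car3*, which muscle also expresses (828 ± 160 against 1327 ± 120 normalized counts, log2 fold change -0.68, adjusted p = 1.13e-04), and the other tested marker, *Cebpa*, did not pass. Of 10 macrophage markers, the defining *Ptprc*, *Adgre1*, *Fcgr1* and *Tyrobp* were not in the table of read counts, and the summed level of the others was 4.97 to 7.92 CPM after BAM15 and 1.79 to 3.05 in vehicle. That sum moved with the rise of *Lpl*, *Pparg* and *Plin2*, and its 2 tested markers, the lysosomal *Cd68* (2.22) and *Cx3cr1* (1.18), were both called higher. The 8 endothelial markers summed to 1.66 to 2.56 CPM after BAM15 and 2.41 to 3.01 in vehicle, with *Pecam1*, *Cdh5* and *Kdr* among the 6 that were not in the table of read counts. Of the 10 myoblast markers, 7 were called lower, *Id1* and *Id3* did not pass, and *Myf5* was called higher (479 ± 260 against 148 ± 39.7 normalized counts, log2 fold change 1.69, adjusted p = 1.44e-03, with overlap between conditions). The part of any of these shifts in the changes of the 9 genes was not tested.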

How the data were processed

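RNA of C2C12 myotubes treated with 20 μM BAM15 or vehicle for 16 h was sequenced from 6 libraries each with Lexogen QuantSeq 3′ chemistry. The authors aligned forward reads with BlueBee software and deposited whole-number read counts per Ensembl gene, without normalization. The submitters' processing notes name GRCm38 and DESeq2 1.22.2, and the aligner, annotation and counting strand are not given in the sources used here. The authors also deposited a normalized signal, in which each library's counts are divided by 1 number of its own, and it was used here for gene symbols only. Each table holds 11 columns of per-sample values that match no sample here and were not used.

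Counts were analysed in R 4.3.3 with edgeR 4.0.16. The filter filterByExpr removed 2383 of 15113 genes, TMM factors scaled the libraries, and the robust quasi-likelihood test compared BAM15 with vehicle over all 12 libraries without further covariates. Benjamini-Hochberg adjustment ran over the remaining 12730 genes, and a gene was called at an adjusted p below 0.01, the threshold of the study's methods, which also ask for a base mean above 50 and a change above 2-fold. Library totals of 13983725 to 18866728 counts leave genes at or below 3 counts in every library of a condition with a lower bound only. Ratios of 2 genes that changed in the same direction were compared with an exact two-sided permutation test over libraries. No pair of libraries in a condition was a copy, with a chi-square per gene of at least 4.98. The scripts were tested on simulated data.

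The 9 genes and the lists were chosen with earlier results of these data known. From each list the text names genes past all 3 thresholds and the 3 largest increases and decreases among called genes, 27 in all, and a few of these are not reported here. Further genes, among them *G0s2*, *Slc27a1*, *Fabp3*, *Lmf1*, *Sel1l*, *Ppard*, *Gpat4*, *Dgat1* and *Pdk4*, were picked after their values were seen. Promoter sequences were read from RefSeq (GRCm38.p6). Alternatives were DESeq2 1.42.0, limma-voom (limma 3.58.1), 3 other scalings, 2 other count filters, no robust moderation, the library number as a block, numbers 1 to 3 or 4 to 6 alone, each library left out, and an adjusted p below 0.05.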

Additional observations from a re-analysis of the deposited data

Results flagged for a closer look

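In 4 of the 72 groups of 6 libraries examined (36 genes in both conditions), 1 library stood further from the rest than Dixon's 95% critical value of 0.625 for the gap to the nearest library over the whole range. Chance alone flags about 1 group in 20.

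*Pparg* was marked in both conditions. BAM15 library 5 held 206 normalized counts, with the next at 67.7 and a gap of 0.867 of the range. Vehicle library 5 held 3.09, with the next at 12.4 and a gap of 0.643. These libraries widen the difference from both sides, and the log2 fold changes without either are given with the values of *Pparg*.

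*Hadhb* stood at 375 normalized counts in BAM15 library 5, with the next at 252 (gap 0.664). *Pcyt1a* stood at 1730 in vehicle library 3, with the next at 1590 (gap 0.794). The cause of these 4 values was not tested.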

How the results depend on the processing

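The 24 alternatives gave the 9 genes 215 further log2 fold changes, none of which changed sign. Of these, 189 stayed on the same side of the threshold, 25 dropped below it (15 for *Angptl4* and 10 for *Cd36*) and 1 passed it (*Lipe*, at an adjusted p below 0.05). *Lpl*, *Plin2*, *Pnpla2*, *Mgll* and *Abhd5* were called under all 24 and *Pparg* under the 23 in which it was tested, a minimum of 10 counts in every library removing it. Between 6 and 9 of the 9 genes were called (8 in the main analysis), 3 or 4 passed all 3 thresholds, and 38 to 59 of the other pathway genes were called (42 in the main analysis). *Angptl4* missed the threshold with library size only (adjusted p = 0.0395), upper quartile scaling (0.0133) and no filter (0.0118). For the other 27 named genes, 625 of 645 values stayed on the same side, 20 dropped below the threshold and 0 changed sign. Over the alternatives, adjusted p ranged from 2.58e-10 to 8.85e-03 for *Pparg*, 1.14e-03 to 0.0429 for *Cd36*, 1.58e-05 to 0.0578 for *Hadhb*, 1.35e-04 to 0.0467 for *Pcyt1a*, 1.10e-03 to 0.131 for *Zfp467*, 1.15e-06 to 0.0375 for *Lipg* and 3.99e-05 to 0.0276 for *Adrb1*. Vehicle levels of *Pparg* rest on 3 to 20 reads, so its fold change is the least precise.

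The replicate numbers did not pair single libraries across conditions. Deviations of libraries with the same number from their condition means correlated at 0.242, 0.036, 0.381, 0.203, -0.083 and 0.325, and only numbers 3 and 6 correlated best with their own number. BAM15 libraries 1 to 3 each correlated best with vehicle library 3 (0.351, 0.429 and 0.381). BAM15 libraries 4 to 6 each did so with vehicle library 6 (0.248, 0.388 and 0.325). A block for numbers 1 to 3 against 4 to 6 was not fitted. With the number as a replicate block, 7 of the 9 genes were called (*Angptl4* at an adjusted p of 0.0162), 3 passed all thresholds, 41 pathway genes were called, and 5292 genes in all against 5379.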

Other observations

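*G0s2* and *Slc27a1*, the fatty acid transport protein, were uneven among the BAM15 libraries in the way *Pparg* was. *Slc27a1* held 24.3, 20.5, 26.3, 38.5, 95.8 and 74.7 normalized counts in BAM15 libraries 1 to 6 and 10.3 to 35.3 in vehicle. As with *Pparg* and *G0s2*, library 5 was the highest and libraries 4 to 6 lay above libraries 1 to 3. Both genes were picked after their values were seen, neither passed the test between conditions, and no relation across libraries was tested.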
